A study of Mus musculus with 36 samples.

Results

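The nuclear genes of oxidative phosphorylation were followed in mouse HM1 embryonic stem cells as they were taken from neuromesodermal progenitors towards motor neurons. A gene was a member if its symbol began with Nduf and a subunit letter and digit, was Sdha, Sdhb, Sdhc or Sdhd, or began with Uqcr, Cox4 to Cox8 or Atp5, if it was protein coding, and if its mean level over all 36 libraries was at least 1 TPM, RSEM's unit of transcript abundance scaled for length and for the library's total. Of 51912 genes in the table, 95 had such a symbol, 84 of them were protein coding, and 78 passed the minimum. Complex I held 36 members, complex II 4, complex III 8, complex IV 13 and complex V 17, and all 78 were also tested. Ndufa4 is counted under complex I and Cox7a2l under complex IV because of their symbols. The 6 coding genes below the minimum were Ndufa4l2, with a mean of 0.739 TPM, Cox4i2 with 0.616 TPM, Cox6a2 with 0.0881 TPM, Cox7b2 with 0.0486 TPM, Cox8c with 0.00778 TPM and Cox8b, listed at 0. Just inside the minimum lay Cox7a1 with 3.99 TPM and Atp5s with 11.1 TPM.

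Polyadenylated RNA was sequenced at 12 time points, days 0, 0.5, 1, 1.5, 2, 2.5, 3, 3.5, 4, 5, 6 and 7, with 3 replicates each. After removal of feeder cells, all cultures received 10 ng/ml bFGF, and on the day before day 0 also the WNT pathway agonist CHIR99021 at 5 µM, the activin and TGF-beta receptor inhibitor SB431542 at 10 µM and the BMP receptor inhibitor DMH1 at 2 µM. Day 0 is labelled as the control, and the later groups had 100 nM retinoic acid (RA) and 500 nM of the Sonic Hedgehog pathway agonist SAG from day 0 on, so that time and treatment cannot be told apart. The course was run in 1 cell line without untreated cultures at later days, and the labels call the replicates of a time point biological replicates but do not say whether they were separate cultures, so p-values measure only the spread between these samples.

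Oxidative phosphorylation takes place at the inner mitochondrial membrane. Complex I (NADH dehydrogenase) and complex II (succinate dehydrogenase) pass electrons to ubiquinone, complex III passes them to cytochrome c, and complex IV (cytochrome c oxidase) to oxygen, while complexes I, III and IV pump protons and complex V (ATP synthase) uses the proton gradient to make ATP. Most subunits are encoded in the nucleus and imported, a few are encoded by mitochondrial DNA, and several nuclear genes of complexes IV and V come in tissue-specific pairs or trios. NRF1 and the ETS family factor GABP (NRF2) are known to act at promoters of many of these nuclear genes.

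Promoter windows are shown because they let the members' courses be set beside the letters of the factors known for this gene class. A RefSeq window (GRCm38.p6, 250 bases before to 50 after the annotated start, 300 bases) was found for 64 of the 78 members. The NRF1 site, spelled as GC directly before GCATGCGC and searched on both strands, stood in the windows of 5 of these 64 members (7.81%), against 1.07% of 27025 genes in the same table and 1.47% of its 17492 protein-coding genes. The core GCATGCGC alone, which every full site also contains, stood in 10 (15.6%), against 3.05% of all genes and 3.94% of the protein-coding ones. The ETS letters CCGGAAG, which are not contained in either NRF1 motif, stood in 16 (25%), against 9.93% of all genes and 12.9% of the protein-coding ones. Complex I, with 32 of the 64 windows, had them in 4 (12.5%), and complex V in 5 of 13. The member windows had a median GC content of 57.3%, against 52.7% over all windows. The 3 windows below each hold a full NRF1 site, which is in capitals, and those of Cox6a1 and Atp5k also hold an ETS site, in capitals as its reverse complement.
Cox6a1 (chr5:115348909-115349208, minus strand): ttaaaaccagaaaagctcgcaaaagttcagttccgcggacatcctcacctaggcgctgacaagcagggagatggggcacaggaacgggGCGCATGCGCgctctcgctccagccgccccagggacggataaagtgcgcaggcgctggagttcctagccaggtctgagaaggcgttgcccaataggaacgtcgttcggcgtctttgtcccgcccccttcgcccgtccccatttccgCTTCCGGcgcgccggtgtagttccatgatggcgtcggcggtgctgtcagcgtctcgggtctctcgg
Atp5k (chr5:108434350-108434649, minus strand): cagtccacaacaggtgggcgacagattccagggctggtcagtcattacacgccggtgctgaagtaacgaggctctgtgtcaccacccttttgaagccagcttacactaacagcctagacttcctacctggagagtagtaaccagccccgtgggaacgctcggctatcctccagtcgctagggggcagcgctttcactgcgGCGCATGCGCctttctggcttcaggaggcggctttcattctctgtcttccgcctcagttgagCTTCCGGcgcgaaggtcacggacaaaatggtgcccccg
Uqcrc1 (chr9:108936398-108936697, plus strand): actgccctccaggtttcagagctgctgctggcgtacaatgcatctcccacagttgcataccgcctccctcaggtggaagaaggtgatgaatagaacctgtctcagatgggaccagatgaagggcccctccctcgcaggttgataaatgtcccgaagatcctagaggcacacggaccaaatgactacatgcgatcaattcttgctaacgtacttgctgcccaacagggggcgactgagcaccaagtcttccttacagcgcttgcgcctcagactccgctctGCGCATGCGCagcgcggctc
The 3 genes had different courses on the scale of normalized counts. Between day 0 and day 7, Cox6a1, a subunit of complex IV, rose (log2 0.56). Atp5k, the e subunit of ATP synthase (log2 -0.25), and Uqcrc1, a core subunit of complex III (log2 -0.41), were called lower. Directions depend on the scale, as set out below, and the TPM of Uqcrc1 overlapped between these days. A match to these letters is a description of the window and not a measured binding site.

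Several members have processed pseudogenes of nearly the same sequence, between which the authors' counting had to divide reads, and the first coding bases of 2 pairs are shown because the values below depend on that division. In the GENCODE M21 models (GRCm38), Ndufs5 and BC002163 (chr16:42955631-42955949, plus strand) differed at 2 of 318 coding bases, 1 of which lies in the 90 bases printed and is in capitals. Atp5g2 and Gm10175 (chr7:23946646-23947290, minus strand) did not differ at any of 438 coding bases.
Ndufs5: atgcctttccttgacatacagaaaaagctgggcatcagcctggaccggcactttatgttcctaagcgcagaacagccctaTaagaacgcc
BC002163: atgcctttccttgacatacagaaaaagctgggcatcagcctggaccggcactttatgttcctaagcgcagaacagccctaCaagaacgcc
Atp5g2: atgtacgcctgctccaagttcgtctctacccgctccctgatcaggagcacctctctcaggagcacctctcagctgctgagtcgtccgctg
Gm10175: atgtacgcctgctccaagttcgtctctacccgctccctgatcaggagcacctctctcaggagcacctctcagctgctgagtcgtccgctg

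Library totals ranged from 26567321 to 35757989 counts. The 78 members took 0.728% to 0.873% of a library's counts, and mitochondrially encoded genes took 0.949% to 1.92%. The samples are all labelled as neural progenitor cells. At day 0, however, 6 neural progenitor markers (Sox1, Sox2, Pax6, Olig2, Nkx6-1 and Hes5) summed to 65.7 ± 2.2 TPM (SD, n = 3, here and below), of which Sox2 gave most, while 6 caudal epiblast markers such as Cdx2 and Nkx1-2 summed to 663 ± 40 TPM. At day 7 the caudal epiblast sum was 1.64 ± 0.53 TPM. Cell composition moved with time: from day 0 to day 7, 7 cell cycle genes went from 1674 ± 12 to 338 ± 35 TPM in sum, 7 neuron genes from 90.3 ± 1.9 to 1726 ± 46, 8 glial genes from 42.4 ± 1.8 to 3472 ± 81, and 5 fibroblast genes from 15.9 ± 0.5 to 874 ± 58. The part of these shifts in the members' changes was not tested, and in these bulk samples fewer cells of a type and less RNA per cell cannot be told apart.

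The members stayed within a narrow range over the course. In edgeR's quasi-likelihood test over the 12 time points, 76 of 78 members changed (adjusted p under 0.05 after Benjamini-Hochberg adjustment over all genes tested), against 96.1% of the 17990 genes tested, so the share called is close to the background. Ndufa13, an accessory subunit of complex I (adjusted p = 0.125), and Cox7a1, the heart and muscle form of a complex IV subunit (adjusted p = 0.135), did not pass. The distance between a member's highest and lowest time point, in mean log2 CPM (counts scaled to the library's total), had a median of 0.51, against 1.63 over all genes tested and 1.01 over the 3780 genes with a mean of at least 50 TPM. It reached 1, a 2-fold span, in 3 members, Ndufv3 with 1.67, Cox6b2 with 1.54 and Atp5l with 1.07, and in 12839 of the 17990 genes tested. The smallest ranges were those of Ndufb3, 0.23, and Cox4i1, 0.24, the main form of the complex IV regulatory subunit 4. Highest and lowest points fell at different times and depended on the scale. In mean log2 CPM, 17 members were highest at day 0, 17 at day 5 and 15 at day 1.5, while 23 were lowest at day 6 and 17 at day 2. In mean TPM, 31 were highest at day 5, 16 at day 7, 7 at day 0 and 1 at day 1.5. On that scale 24 were lowest at day 2, 20 at day 0 and 3 at day 6.

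**Figure D1:**
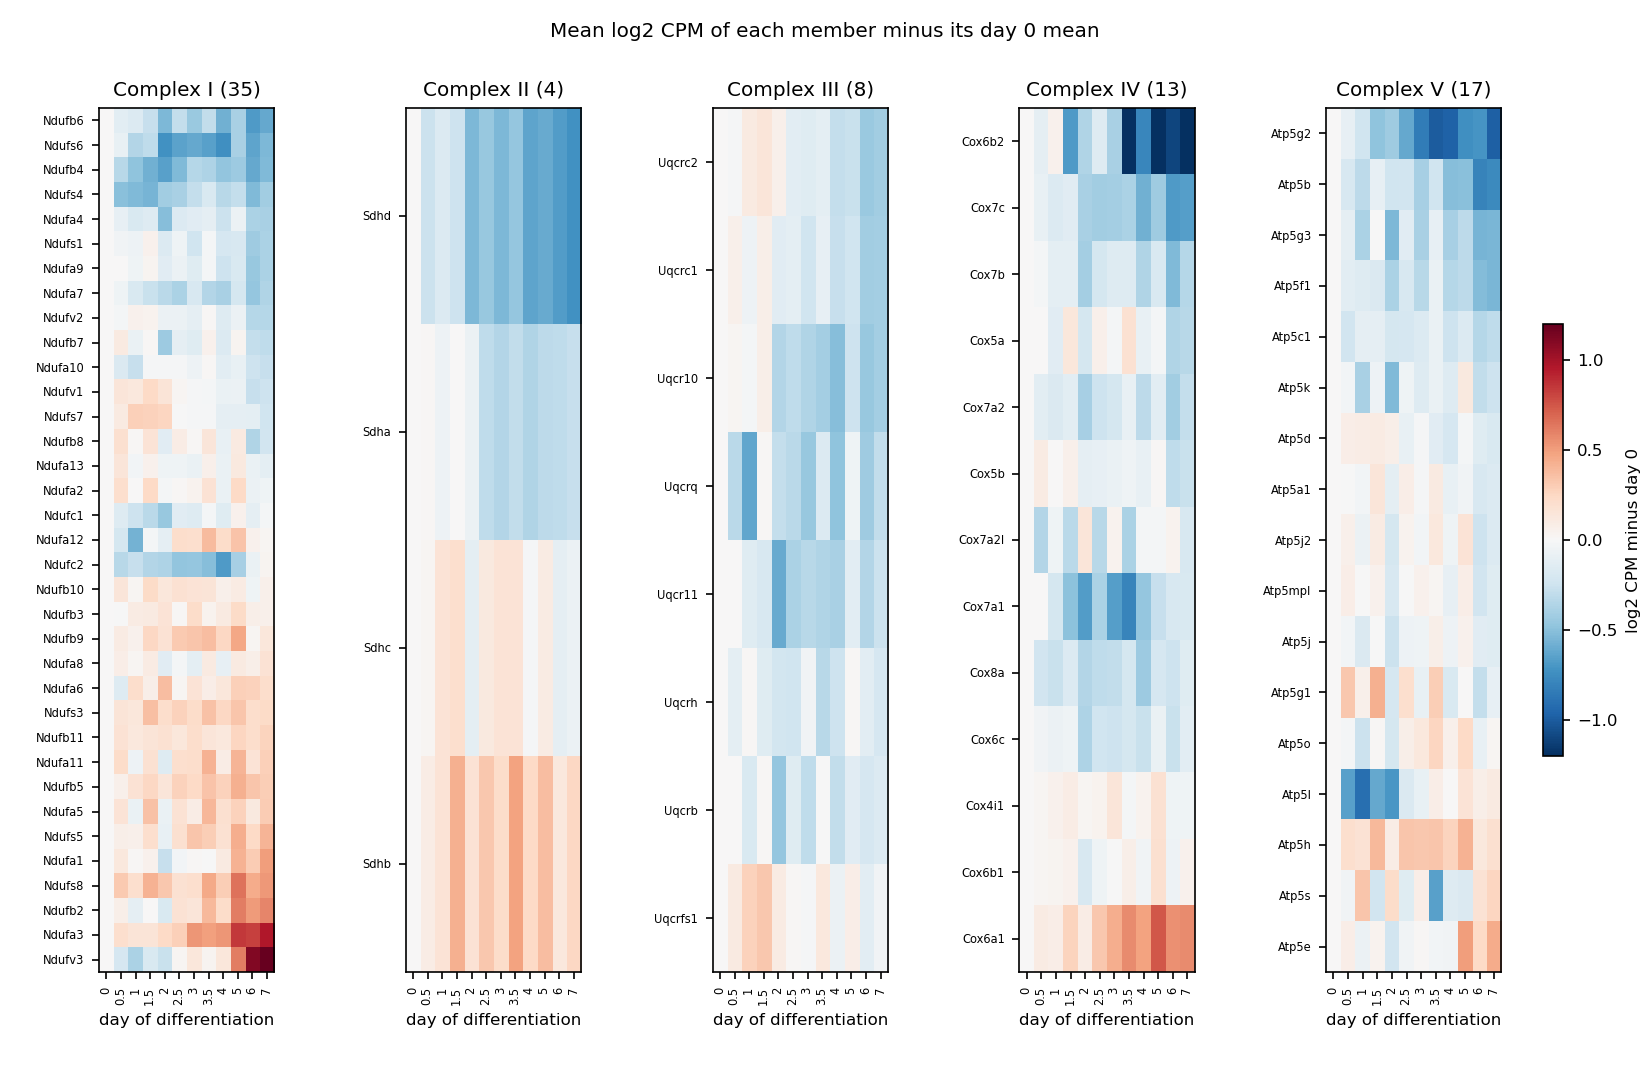
Mean log2 CPM, after edgeR's scaling between libraries, of 77 members, as the difference from each member's own day 0 mean. Rows are members by complex and columns are the 12 time points, by day of differentiation. Colour gives the difference on the log2 scale and each mean is over 3 replicates. Most rows stay pale (the median range over all 78 members was 0.51), and Ndufv3 and Cox6b2 have the widest ranges, 1.67 and 1.54.

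Whether the sum over the members went up or down depended on the scale. Summed TPM, a level per transcript length, was 18049.9 ± 483 at day 0, 16983 ± 172 at day 1, 17119 ± 46.2 at day 2, 21827 ± 128 at day 5 and 20715 ± 371 at day 7, so that the day 7 sum was 1.148 times that of day 0 and no day 7 replicate overlapped a day 0 replicate. Summed CPM was taken as a share of the library's total count, with no length correction and no scaling between libraries. It was 8490.2 ± 235 at day 0 and 7783 ± 156 at day 7, a ratio of 0.9167. The median gene of all 17990 tested moved too: between day 0 and day 7 its difference was 0.41 on the log2 TPM scale and 0.05 in edgeR's normalized counts, a shift of 0.36 between the scales, with 0.19 for day 4 against day 2 and 0.11 for day 2 against day 0.5. Relative to that median gene both scales gave nearly the same value, with the median member 0.22 lower at day 7 than at day 0 on the TPM scale and 0.21 lower in edgeR's fit. Against the 3780 genes with a mean of at least 50 TPM, the order was the reverse. Their median was 0.10 in log2 TPM and -0.14 in log2 CPM on library totals, below the 0.19 and -0.05 of the median member. The relative fall therefore holds against all genes tested and not against abundant genes. Directions below are those of edgeR's fit, and a change of sign in TPM is named with the gene.

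By complex, the ratio of day 7 to day 0 was 1.294 for complex I in summed TPM, 1.134 for complex II, 1.062 for complex III, 1.166 for complex IV and 1.052 for complex V. In summed CPM the ratios were 1.049, 0.9351, 0.8838, 0.9835 and 0.8294, so that complexes II to V were below 1 and only complex I was above it on both scales. Its single members went both ways. In edgeR's normalized log2 CPM, 18 members of complex I were above and 18 below day 0 at day 7, with a median of 0.0016. Complex V, whose mean sum was the largest at each of the 12 time points, had 6373 ± 130.2 TPM at day 0 and 6704 ± 112 at day 7, while complex I went from 4913 ± 159.7 to 6356 ± 103 TPM. At day 6 the 3 replicates were spread most, with member sums of 21602, 19927 and 19278 TPM. At day 4, replicate 1 had 18980 TPM against 20706 and 20433 in the others, and its share of mitochondrially encoded counts was 1.73% against 0.949% and 1.23%; the part of that share in the day 4 values was not tested.

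**Figure D2:**
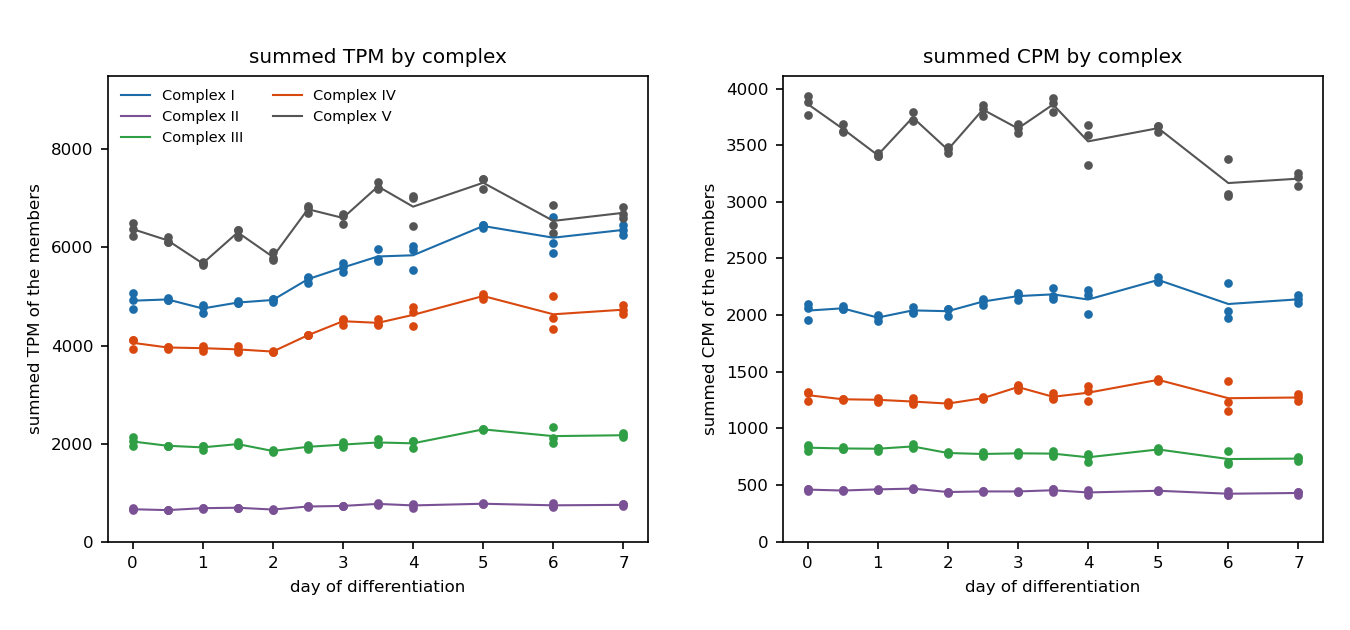
Summed TPM (left) and summed CPM (right) of the members of each complex against day of differentiation; points are single libraries and lines join the means of 3 replicates. Complex I ends above its day 0 level in both panels (ratios 1.294 and 1.049), whereas complex V ends above it in TPM (1.052) and below it in CPM (0.8294).

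Stage by stage, few members changed by 1.5-fold or more, and in edgeR's fit the calls went both ways at each stage but were mostly lower between day 0.5 and day 2. On the TPM scale the uneven stage was another, day 2 to day 4. There the median of all genes tested rose too (log2 0.20, against 0.23 for the median member). The limma counts without centring are therefore not read as a trait of the members. No share of all genes called stands beside the limma counts, here and below. At day 0.5 against day 0, 12 h after RA and SAG, 14 members were called higher and 18 lower, against 54.3% of all genes called in either direction (27.6% higher and 26.7% lower). In 42 members the day 0 and day 0.5 replicates were fully separate (background 62.1%). The median member did not move (log2 0.00), and 1 changed by 1.5-fold or more, against 22.7% of all genes. From day 0.5 to day 2, 7 were higher and 42 lower (background 67.9% in either direction, 33.9% higher and 34% lower), with a median of -0.17 against 0.00 over all genes and 3 members past 1.5-fold (background 35.6%). The groups did not overlap in 53 members (background 71%). Limma on log2(TPM + 1) gave 23 higher and 31 lower here, and 10 and 36 with all genes centred. From day 2 to day 4, 26 were higher and 19 lower (background 64.9% in either direction, 33.1% and 31.8%), with a median of 0.03 against 0.01 and 1 member past 1.5-fold (background 31.9%). The groups did not overlap in 38 members (background 65.3%). Limma on log2(TPM + 1) gave 56 higher and 4 lower here, and 33 and 13 with all genes centred. Of the 42 members that were lower at day 2, 18 were called higher at day 4 against day 2. Both comparisons use the same day 2 libraries, which favours such a pair of calls. With no matching share of all genes, the count is not read as a recovery. From day 4 to day 7, 18 were higher and 19 lower (background 66.3% in either direction, 33.5% and 32.9%), with a median of -0.02 against 0.00, and 3 were past 1.5-fold (background 32.7%). The groups did not overlap in 36 members (background 69%). Without day 4 replicate 1 these last counts were 10 higher and 28 lower. Without day 0 replicate 1, or without day 0 replicate 2, the 14 members higher at day 0.5 were 9.

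Over the whole course, day 7 against day 0, 18 members were higher and 44 lower, with a median of -0.16 against 0.05 over all genes. The background was 85.3% in either direction, 44.1% higher and 41.2% lower, so that fewer members were called higher and more called lower than among all genes. Past 1.5-fold were 9 members, against 66.1% of all genes. The groups did not overlap in 62 members (background 86.3%). Of the 44 members called lower, 26 had a higher mean TPM at day 7 than at day 0, which is the shift between scales given above; limma on log2(TPM + 1) gave 48 higher and 10 lower, and the same test with all genes centred, an alternative chosen after seeing the data, gave 24 and 37. By complex, complex I had 14 higher and 15 lower, complex II 1 and 2, complex III 0 and 7, complex IV 1 and 9, and complex V 2 and 11. These comparisons share libraries with each other (day 0, day 0.5, day 2, day 4 and day 7 each serve in more than one), so they do not repeat each other independently.

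Among the members of complex I, the largest rise was that of Ndufv3 (ENSMUSG00000024038, chr17:31520115-31531331, plus strand), an accessory subunit of the NADH-oxidizing module. It had 117, 121 and 127 TPM at day 0, 173, 187 and 188 at day 4, 278, 255 and 241 at day 5, 375, 365 and 373 at day 6 and 424, 411 and 390.0 at day 7. Each of these groups lay above the one before it without overlap. Most of the change came after day 4 (day 7 against day 4, log2 1.15, SE 0.044, adjusted p = 2.11e-21; day 7 against day 0, log2 1.28, SE 0.045, adjusted p = 1.26e-23, edgeR's quasi-likelihood test). The lowest mean, 102 ± 2.7 TPM, was at day 1, and the day 7 mean was 4.00 times that. Ndufa3, an accessory subunit, rose more evenly, from 120.0, 136 and 134 TPM at day 0 to 229, 238 and 236 at day 4 and 332, 339.7 and 325 at day 7. Its day 0 and day 7 groups did not overlap (log2 0.97, SE 0.067, adjusted p = 4.05e-15). Ndufb2, an accessory subunit of the membrane arm, went from 76.9, 73 and 81.8 to 125, 104 and 123 TPM (log2 0.59, SE 0.065, adjusted p = 4e-10), with no overlap, although the model of Ndufb2 shares exons with another gene on the same strand, so its reads may be divided.

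Other members of complex I differed in when they changed. Ndufc2, an accessory subunit, had 154, 151 and 138 TPM at day 0, 127, 119.5 and 124 at day 4 and 232, 224 and 207 at day 7. It was lower at day 0.5 than at day 0 (log2 -0.34) and at day 4 than at day 2 (log2 -0.30), and rose without overlap after day 4 (log2 0.71, SE 0.055, adjusted p = 2.81e-13). Ndufs8, a core subunit that holds iron-sulfur clusters, rose within 12 h, from 57, 56.1 and 56.2 to 69.6, 72.9 and 68 TPM (log2 0.32, SE 0.06, adjusted p = 3.47e-05), and rose again after day 4 (log2 0.22), to 106, 98.7 and 106 at day 7. Ndufs4, an accessory subunit needed for a stable complex I, fell over the same 12 h, from 89.8, 80.8 and 89 to 58.1, 63.1 and 62 TPM (log2 -0.50, SE 0.056, adjusted p = 2.66e-09). By day 7 it was back at 84.9, 82.1 and 82.3 TPM, a level that overlaps day 0 in TPM and is lower on the scale of normalized counts (log2 -0.42). The third rise at day 0.5 by size, that of Ndufa11, an accessory subunit of the membrane arm (log2 0.23), depended on 1 library: without day 0.5 replicate 3 it was 0.15 with an adjusted p of 0.0957.

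The fall between day 0.5 and day 2 was largest in complex I for Ndufs6, an accessory subunit that binds zinc. It had 116, 123 and 118 TPM at day 0.5 and 81.3, 84 and 83.5 at day 2, with no overlap (log2 -0.63, SE 0.058, adjusted p = 1.6e-11). In normalized counts it was not called between day 2 and day 4 (log2 -0.00, adjusted p = 0.953) and was higher at day 7 than at day 4 (log2 0.20). That last call depended on 1 library: without day 4 replicate 1 it was 0.13, with an adjusted p of 0.0623 by edgeR's test. Ndufb7 fell between day 0.5 and day 2 too (log2 -0.55, SE 0.058, adjusted p = 4.74e-10) but was higher again at day 4 (log2 0.28). Ndufa6, an accessory subunit of the LYR family, went the other way and had 132, 131 and 134 TPM at day 0.5 and 203, 198 and 216 at day 2 (log2 0.52, SE 0.077, adjusted p = 3.62e-07). Ndufa4, the member of highest mean TPM with an Nduf symbol (444 TPM), is now known to belong to complex IV. It was at 469.8, 428 and 481 TPM at day 0, 328, 351 and 343 at day 2 and 461, 479 and 482 at day 4, below day 0 at day 2 in every replicate.

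Complex II has 4 members and no mitochondrially encoded subunit. Its anchor subunit Sdhd (ENSMUSG00000000171, chr9:50596357-50603812, minus strand) had the largest range of the 4. It was at 149, 148 and 160.4 TPM at day 0, 126, 131 and 124 at day 0.5 and 119, 117 and 117 at day 7. All later replicates shown lay below all of day 0, in TPM as well as in normalized counts (log2 -0.73, SE 0.05, adjusted p = 2.57e-15 for day 7 against day 0). Sdhb, the iron-sulfur subunit, rose over the course, from 116, 122 and 123 to 185, 176 and 189.8 TPM without overlap (log2 0.25, SE 0.044, adjusted p = 3.71e-06). Sdha, the flavoprotein subunit, was at 120.3, 123 and 123 TPM at day 0 and 131, 122 and 123 at day 7. These overlap in TPM, while the normalized counts were lower at day 7 (log2 -0.27). Sdhc, the other anchor and the most abundant of the 4 (312 TPM on average), was not called between day 0 and day 7 (log2 -0.07, adjusted p = 0.194), although its TPM went up without overlap, from 269 ± 8.4 to 326 ± 11.9. The subunits of complex II did not share 1 direction.

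In complex III, 7 of 8 members were lower at day 7 than at day 0 and none was higher in edgeR's fit, with a median of -0.28. The largest of these by size were Uqcrc2 (log2 -0.42), Uqcrc1 (log2 -0.41) and Uqcr10 (log2 -0.41), and for all 3 the TPM at day 0 and day 7 overlapped. Uqcrc2, a core subunit, had 174, 159.6 and 167 TPM at day 0 and 174, 158 and 163 at day 7. Uqcrh, the hinge subunit and the most abundant of the complex (465 TPM on average), shows the scale shift: its TPM went from 453 ± 19.7 to 507 ± 10.7, up, while its normalized counts were lower (log2 -0.20). For Uqcr11, a small subunit, the dip at day 2 stood out, with 237, 238 and 235 TPM at day 0.5 and 172, 177 and 157 at day 2, without overlap (log2 -0.61, SE 0.068, adjusted p = 1.18e-09). Uqcrb, the ubiquinone-binding subunit, fell over the same days (log2 -0.46, SE 0.056, adjusted p = 7.96e-09) and was higher again at day 4 (log2 0.17). The widest range in the complex was that of Uqcrq (ENSMUSG00000044894, chr11:53427922-53430831, minus strand), at 330.4, 316 and 365 TPM at day 0, 224, 225 and 206 at day 1 and 388, 375 and 397 at day 5. Day 1 lay below and day 5 above all replicates of day 0.

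Complex IV had 1 member higher and 9 lower at day 7 than at day 0. The fall was largest for Cox6b2 (ENSMUSG00000051811, chr7:4751792-4753094, minus strand), known as the testis form of subunit 6B. Its levels were 104, 109 and 104 TPM at day 0, 119.6, 108 and 102 at day 1, 77.5, 72.2 and 73 at day 4 and 52.2, 45.8 and 45.8 at day 7. Day 4 lay below day 0 and day 7 below day 4 in every replicate (log2 -0.71, SE 0.11, adjusted p = 5.57e-07 for day 7 against day 4; log2 -1.49, SE 0.1, adjusted p = 4.02e-15 for day 7 against day 0). The rise was that of Cox6a1 (ENSMUSG00000041697, chr5:115345642-115348981, minus strand), the widely expressed form of subunit 6A, whose promoter is printed above. It had 261, 264 and 296 TPM at day 0, 447, 484 and 486 at day 4 and 523, 518 and 519 at day 7. The groups did not overlap (log2 0.39, SE 0.059, adjusted p = 6.75e-07 for day 4 against day 2; log2 0.56, SE 0.059, adjusted p = 1.51e-10 for day 7 against day 0). Cox7c, a small structural subunit, was lower at day 7, with 264, 253 and 264 TPM at day 0 and 220.1, 207 and 217 at day 7 (log2 -0.66, SE 0.065, adjusted p = 3.38e-11). Cox4i1, the most abundant (894 TPM on average), was at 795, 753 and 789 TPM at day 0 and 1003, 943 and 939 at day 7. It was higher in TPM without overlap and not called in normalized counts (log2 -0.06, SE 0.052, adjusted p = 0.319). Cox7a1, at 3.99 TPM, had a call between day 0.5 and day 2 with overlapping groups that was lost without any 1 of 4 libraries, and no change is read from it.

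Complex V had 2 members higher and 11 lower at day 7 than at day 0. Atp5b (ENSMUSG00000025393, chr10:128083273-128090391, plus strand), the catalytic beta subunit and the member of highest mean TPM (1430), was among the lower ones on both scales. It had 1604, 1614 and 1636 TPM at day 0, 1333, 1322 and 1299 at day 1, 1449, 1514 and 1493 at day 2 and 1229.8, 1207 and 1240.1 at day 7. All day 7 replicates lay below all others named (log2 -0.77, SE 0.037, adjusted p = 1.51e-19). Atp5l (ENSMUSG00000038717, chr9:44912557-44920742, minus strand), the g subunit of the membrane part, had the widest range of the complex. It fell within 12 h, from 213, 197 and 238 to 139, 129 and 141 TPM (log2 -0.65, SE 0.078, adjusted p = 1.17e-08), and had 116, 114 and 119 at day 1. It then rose from 145, 150.5 and 136 at day 2 to 244, 298 and 272 at day 4 without overlap (log2 0.71, SE 0.078, adjusted p = 1.13e-09) and had 332, 326 and 286 at day 7. Day 7 lay above day 0 in TPM without overlap but was not called in normalized counts (log2 0.11, adjusted p = 0.169). Atp5e, the epsilon subunit of the catalytic head, rose after day 4, from 191, 218 and 214 to 317, 299 and 303 TPM (log2 0.49, SE 0.074, adjusted p = 5e-07). Atp5s, which is a coupling factor B subunit, was low throughout (11.1 TPM on average); its call at day 2 against day 0.5 (log2 0.27) was lost without any 1 of 3 libraries, and that at day 4 against day 2 (log2 -0.38) without either of 2.

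**Figure D3:**
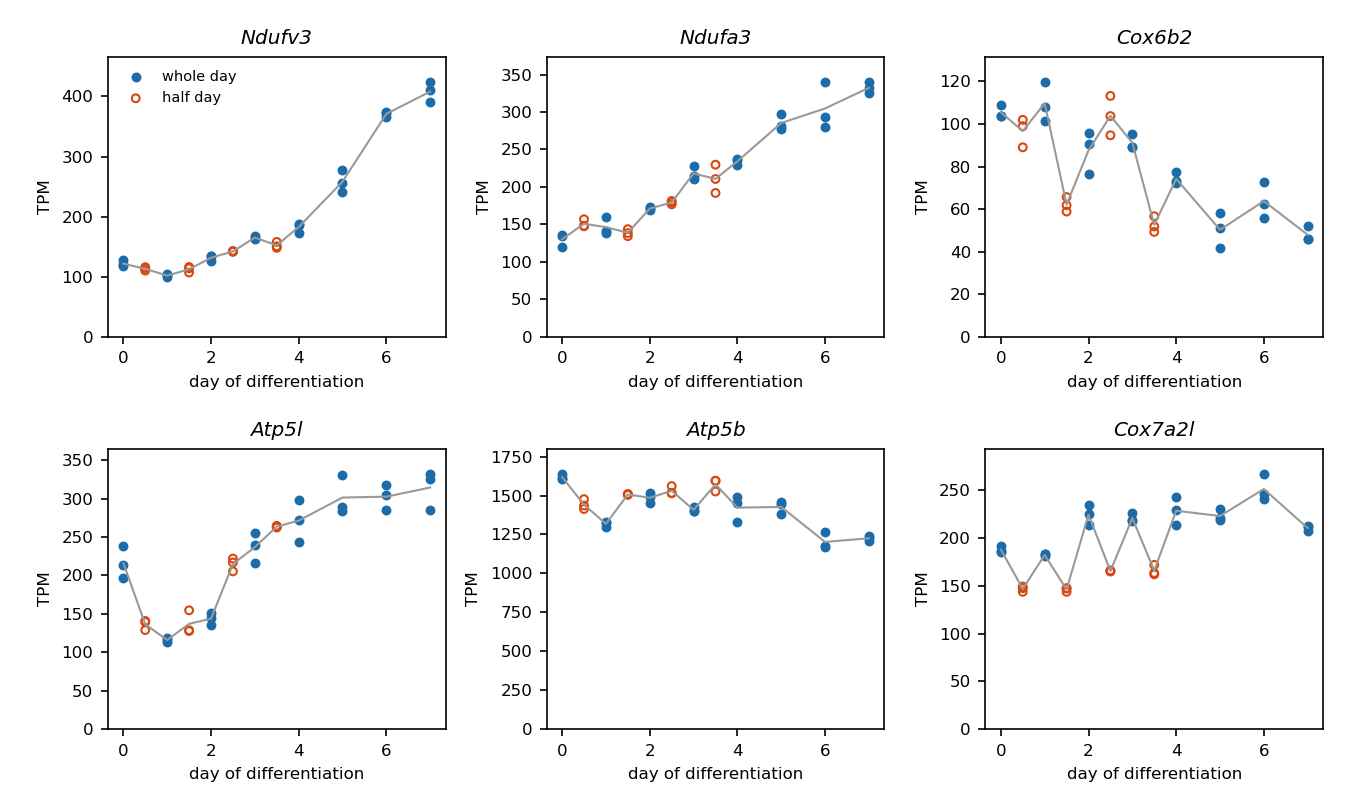
TPM of selected members in each library against day of differentiation; filled points are whole days, open points are days 0.5, 1.5, 2.5 and 3.5, and the line joins the means of 3 replicates. Ndufv3 ends at 424, 411 and 390.0 TPM, Cox6b2 at 52.2, 45.8 and 45.8 TPM, and the open points of Cox7a2l lie below their neighbours.

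The gene families with alternative forms were read as shares of TPM in each library. Cox6b2 made up 21.7% ± 1.4 of the TPM of Cox6b1 and Cox6b2 together at day 0, 17.5% ± 0.9 at day 3, 13.6% ± 1.4 at day 4 and 8.68% ± 0.46 at day 7. The day 7 range, 8.30% to 9.19%, did not overlap the day 0 range, 20.4% to 23.1%. The share was not even in between, with 14% ± 1.1 at day 1.5 and 10.4% ± 0.9 at day 3.5. The 3 genes for the c subunit of ATP synthase, which encode the same mature protein, were led by Atp5g3 with 68.2% ± 0.8 at day 0 and 64.4% ± 0.5 at day 7. Atp5g1 gave 28.4% ± 1.3 at day 0 and 33.3% ± 0.9 at day 7, and these ranges did not overlap. Its course between them was uneven, with 34.4% ± 0.6 at day 0.5, 30.3% ± 0.6 at day 4 and 30.2% ± 0.4 at day 6. Atp5g2 stayed between 1.47% and 4.02% in all libraries, with the reservation on its pseudogene below. Within the Cox7a family, Cox7a2l, also known as a factor in the joining of respiratory supercomplexes, had mean shares of 45.5% to 59.4%. A reservation on its pseudogene, given below, holds for Cox7a2l as well. The muscle and other tissue-specific forms were scarce: Cox4i2 reached at most 0.287% of its pair, Cox6a2 0.253%, Cox7b2 0.233%, Cox8b with Cox8c 0.035% and Ndufa4l2 0.513%. The ranges of Cox4i2 were 0.231% to 0.287% at day 0 and 0.00938% to 0.0716% at day 6.

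Another pattern ran beside the stages. The mean of days 0.5, 1.5, 2.5 and 3.5 was set against the mean of the whole days on either side of each, a comparison added after seeing the data. Of the 78 members, 48 were higher and 6 lower at these in-between time points, against 55% of all genes called in either direction, 29.2% higher and 25.8% lower. In 32 members (41.0%) the value was above its neighbours at all 4 of them, as in 19.5% of all genes. The median difference was log2 0.09, against -0.0026 over all genes tested. No member reached 1.5-fold, whereas 1079 of the 17990 genes tested were called with such a difference. By complex, 21 members of complex I were higher and 2 lower, in complex II 2 and 0, in complex III 6 and 1, in complex IV 7 and 2, and in complex V 12 and 1. Atp5g1 and Atp5g3 led: Atp5g1 had 207, 237 and 233 TPM at day 2, 301, 337 and 298 at day 2.5 and 261, 264 and 255 at day 3 (log2 0.39, SE 0.028, adjusted p = 1.64e-13). Day 2.5 lay above both neighbours in every replicate. For Atp5g3 the values were 452, 466 and 448 TPM, 619, 612 and 614 and 527, 541 and 531 (log2 0.29, SE 0.018, adjusted p = 8.62e-15), again without overlap.

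Cox7a2l (ENSMUSG00000024248, chr17:83501918-83517330, minus strand) went the other way at all 4 of these time points. It had 235, 214 and 225 TPM at day 2, 165, 166 and 165 at day 2.5, 219, 226 and 218 at day 3, 162, 163 and 172 at day 3.5 and 229, 243 and 213 at day 4. The in-between groups lay below both neighbours without overlap (log2 -0.38, SE 0.022, adjusted p = 1.28e-15). The other 5 lower members were Atp5s (log2 -0.41), Cox6b2 (-0.26), Ndufa6 (-0.20), Uqcrh (-0.12) and Ndufb3 (-0.09). The comparisons of day 0.5 with day 0 and of day 2 with day 0.5 each set an in-between time point against a whole day, so the fall of 42 members at day 2 cannot be told apart from this alternation by those comparisons alone. Limma on log2(TPM + 1) gave 28 higher and 15 lower, and 38 and 9 with all genes centred. The labels name no batch and say that medium was changed daily; the part of sampling time, feeding or library preparation was not tested.

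**Figure D4:**
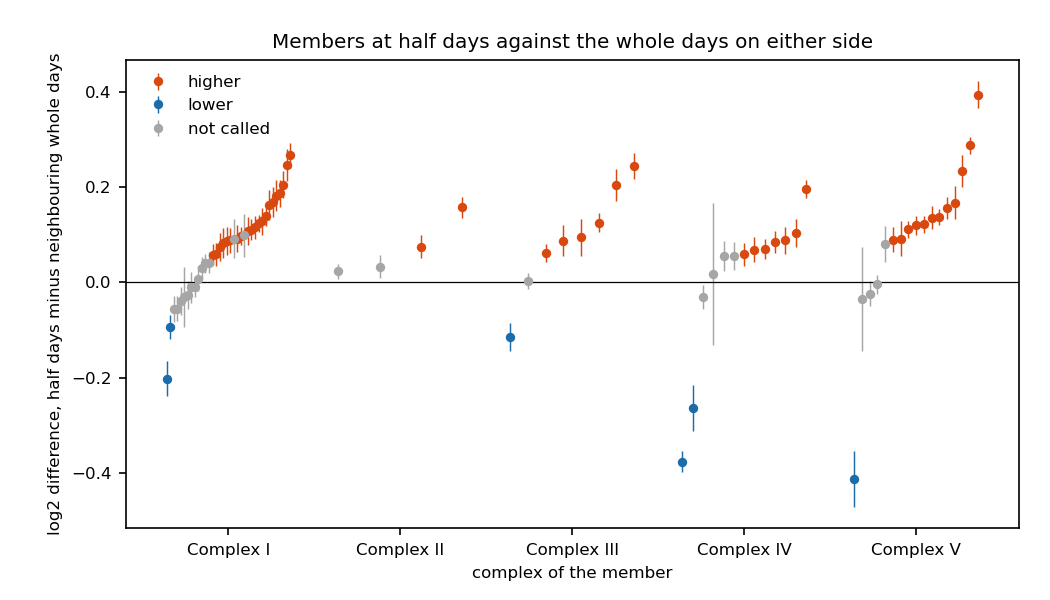
Difference in log2 normalized counts between days 0.5, 1.5, 2.5 and 3.5 and the whole days on either side, for each of the 78 members by complex; bars are approximate standard errors and colours give the call. In all, 48 members lie above 0 with a call and 6 below it, the lowest being Atp5s (-0.41) and Cox7a2l (-0.38); the comparison was added after seeing the data.

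For 7 members a processed pseudogene of the coding sequence, at 95% identity or more, had at least 10% of the member's mean TPM. Atp5g2 had 4.01% of the TPM of itself and Gm10175 over all libraries, with 22.5 TPM against 539 for the pseudogene, and its share of the pair ranged from 2.31% to 6.05%. Ndufb4 had 17.0% of its pair with Ndufb4c, Ndufs5 28.7% with BC002163, Cox7c 29.6% with Gm12338, Cox7a2l 45.3% with Gm6969, Atp5l 46.5% with Gm10221 and Ndufa12 63.1% with Gm15920. Reads from bases that a pair shares, as in the windows printed above, cannot be told apart, and the levels of these 7 members are uncertain. In all, 24 members overlap exons of a gene on the opposite strand, among them Ndufa3 (with Tfpt), Ndufs6 (Mrpl36), Cox4i1 (Emc8) and Atp5l (Gm30934), and no source used here gives the strand setting of the counting. The call of Atp5g2 (log2 -1.00, adjusted p = 0.000136 by edgeR's test, day 7 against day 0) rests on 33.6, 32.2 and 23.7 TPM against 16.7, 22.4 and 18.8 TPM. The counts of the pseudogenes were then added to the member, a step added after seeing the data. All 10 calls compared, those of Atp5g2, Atp5l and Cox7a2l, kept their direction and side of the threshold. The call of Cox7c given above was not among those compared. The value of Atp5g2 became -0.74, mostly from reads given to the pseudogene, and that of Atp5l at day 0.5 against day 0 became -0.49.

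**Figure D5:**
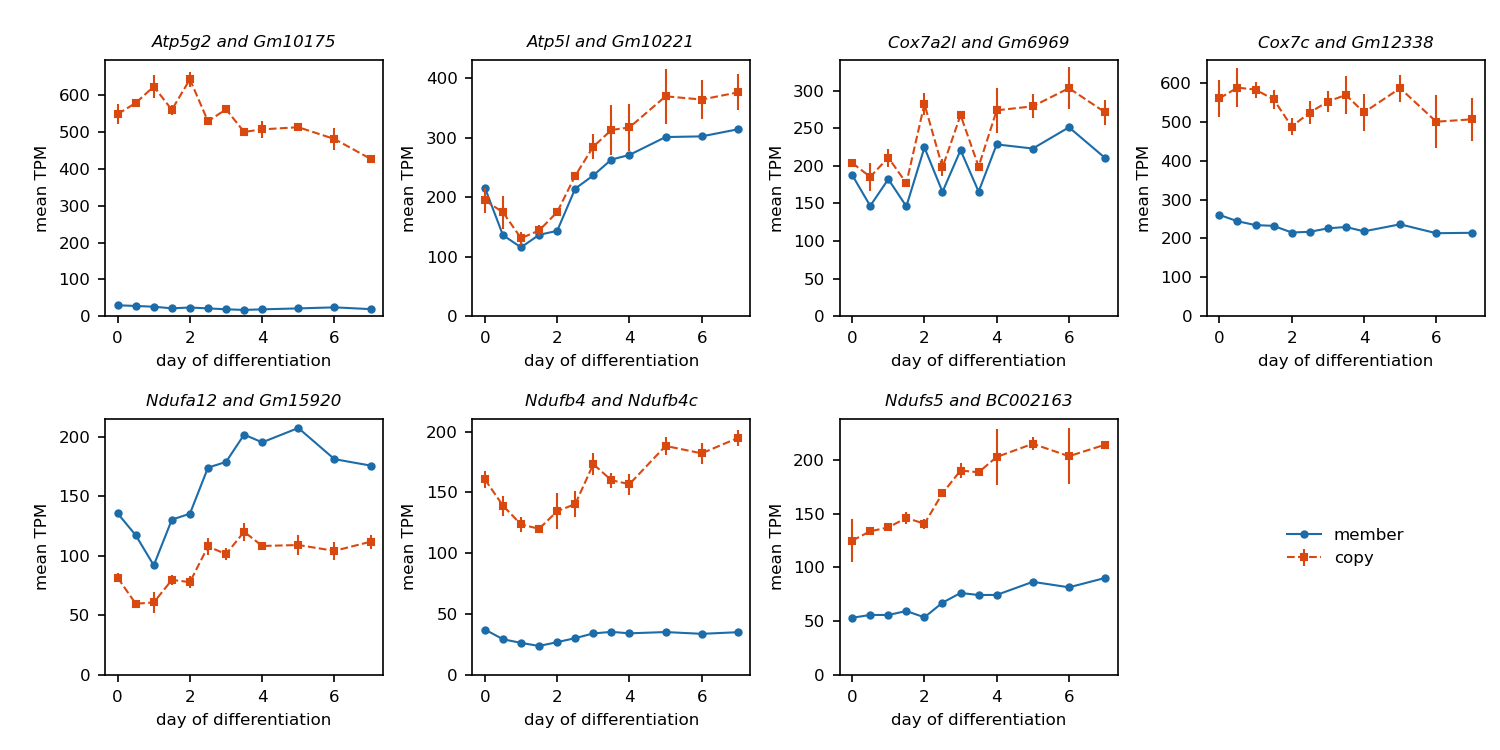
Mean TPM over 3 replicates of 7 members (circles) and of the processed pseudogene most like each (squares, bars are SD) against day of differentiation. Gm10175 lies far above Atp5g2, with 539 against 22.5 TPM over all libraries, while Atp5l and Gm10221 share their reads nearly evenly.

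Courses within a complex were compared by correlation. Over the 12 time point means, the median Pearson correlation between pairs was 0.13 in complex I, 0.21 in complex II, 0.40 in complex III, 0.23 in complex IV and 0.40 in complex V, and 0.23 over all 3003 pairs. All pairs rest on the same 36 libraries and carry no test. The 12 means include the 4 in-between time points, at which 48 members were called higher than at their neighbours. Atp5s, Ndufa6 and Cox7a2l were below their neighbours at all 4, whereas Ndufv3 was not called there. The part of that alternation in these correlations was not tested. In complex III all 28 pairs were positive. The members most like the mean of the others were Atp5j2 (r = 0.92), Atp5mpl (0.91) and Cox7a2 (0.90), and those least like it were Atp5s (-0.58), Ndufa6 (-0.54), Cox7a2l (-0.53) and Ndufv3 (-0.38).

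Other genes of the pathway were counted by pathway list. Of 13 mitochondrially encoded subunits, 8 were higher and 1 lower at day 7 than at day 0 (69.2% called, against 85.3% of all genes, 44.1% higher and 41.2% lower). mt-Nd5 went from 642 ± 96 to 2014 ± 97.4 TPM (log2 1.29, adjusted p = 3.53e-11), and mt-Atp8 was lower (log2 -1.07, adjusted p = 0.000668). The sum of the 13 was 18563 ± 4262 TPM at day 0 and 31868 ± 678 at day 7. The spread at day 4 was wide, 17021 to 30888 TPM. Of 6 carriers and subunits outside the symbol rule, 5 were lower, among them Cyc1, cytochrome c1 of complex III (log2 -0.73, adjusted p = 1.94e-15), Cycs, cytochrome c (log2 -0.86, adjusted p = 2.14e-11), and Slc25a5, an ADP/ATP carrier (log2 -1.04, adjusted p = 4.16e-20). Slc25a4, also an ADP/ATP carrier, was higher (log2 0.29, adjusted p = 1.02e-08). Of 54 assembly factors, 9 were higher and 31 lower (74.1% called), with Cox19 (log2 1.73, adjusted p = 5.18e-24) and Nubpl, needed for the clusters of complex I (log2 -1.58, adjusted p = 6.11e-19), at the ends. Their summed TPM, on the other hand, was 1808 ± 50.7 at day 0 and 1989 ± 16.0 at day 7, higher without overlap.

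Of 20 regulators of mitochondrial biogenesis, 2 were higher and 17 lower at day 7 than at day 0, against the same 44.1% and 41.2% of all genes, and their summed TPM went from 684 ± 9.8 to 473 ± 10.4. The higher ones were the nuclear receptor Esrrg, from 0.173 ± 0.0981 to 16.6 ± 1.2 TPM (log2 7.23, adjusted p = 6.02e-24), and the coactivator Ppargc1a, from 0.177 ± 0.0306 to 8.76 ± 1.48 TPM (log2 5.20, adjusted p = 2.6e-22). Its relative Ppargc1b (log2 -2.97, adjusted p = 7.42e-16) and the nuclear receptor Esrrb, also a factor of pluripotent cells (log2 -3.72, adjusted p = 5.82e-16), were lower. Of 20 genes of the tricarboxylic acid cycle and its pyruvate supply, 6 were higher and 14 lower, with the pyruvate carrier Mpc1 highest (log2 3.44, adjusted p = 4.12e-26) and Suclg2 lowest (log2 -2.15, adjusted p = 2.15e-30). The summed TPM of this list was higher at day 7, 2355 ± 24.1 against 2215 ± 17.3 at day 0, so the sum and most calls differ in direction.

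Between day 4 and day 7, 21 of 22 glycolysis and hypoxia-response genes were higher and none lower (background 33.5% and 32.9%), while the members had 18 higher and 19 lower. Their sum was 13373 ± 301 TPM at day 0, 5071 ± 163 at day 4 and 10366 ± 799 at day 7. Ldha, lactate dehydrogenase A, went from 119 ± 4.72 to 972 ± 123 TPM (log2 2.97, adjusted p = 3.4e-18), and Pdk1, which inhibits pyruvate dehydrogenase, rose too (log2 3.63, adjusted p = 1.28e-20). From day 0 to day 7, 11 were higher and 7 lower, with the glucose transporters Slc2a3 (log2 -4.46, adjusted p = 4.74e-30) and Slc2a1 (log2 -3.03, adjusted p = 6.29e-29) lower and the oxygen sensor Egln3 higher (log2 3.80, adjusted p = 8.94e-27).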

How the data were processed

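The authors deposited expected counts and TPM (abundance scaled for transcript length and library total) for 36 mouse libraries. Per the submitters' processing notes, bcl2fastq 2.20.0, RSEM and the GRCm38 build were used. No source used here gives the aligner, annotation release or strand setting. Symbols came from a gene name table that matched 51633 of 51912 IDs.

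The members and gene lists were chosen with earlier results of these data known. Expected counts were rounded to whole numbers, filtered with filterByExpr (17990 genes left of 32047 with a count), scaled by TMM (factors 0.924 to 1.06) and tested with edgeR 4.0.16 (R 4.3.3) by quasi-likelihood in 1 model with 12 time points as groups and 24 residual degrees of freedom. Benjamini-Hochberg adjustment ran over all genes tested, and adjusted p under 0.05 is a call. The standard error (SE) printed is the absolute log2 difference divided by the square root of F, an approximation. Summed CPM, and the medians of log2 CPM set beside log2 TPM, are taken on library totals. Ranges, highest and lowest time points, the heatmap and correlations use log2 CPM on totals scaled by TMM after the filter. The counts of members whose groups did not overlap also use totals scaled by TMM. Values with ± are mean and SD of 3 replicates. The script was tested on simulated data.

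The text names, in each comparison, the 3 largest rises and falls among called members without overlap, the most abundant and the widest-ranging member of each complex, the isoform families and, in a comparison, up to 4 called genes of each pathway list with large changes, and a gene that alone went the other way. Other members are named where a limit or a contrast needs them, after their values were seen. One member is not reported by name here and is left out of the heatmap. Alternatives were DESeq2 1.42.0, median-of-ratios scaling, no filter, a replicate block, limma 3.58.1 on log2 TPM, fits of only the libraries compared, and leaving out each library. Near-identical genes were found with BLAST 2.17.0. No 2 columns were identical, and replicate pairs differed by more than sampling noise (chi-square per degree of freedom 3.14 to 54.4).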

Additional observations from a re-analysis of the deposited data

How the results depend on the processing

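Counts were limited in precision by 3 replicates a time point and by 26567321 to 35757989 counts a library. The main dependence was on scale. With limma on log2(TPM + 1), the members higher and lower were 23 and 31 for day 2 against day 0.5, 56 and 4 for day 4 against day 2, 48 and 10 for day 7 against day 0, and 28 and 15 for the in-between time points. With a pseudocount of 0.1 they were 23 and 31, 56 and 4, 48 and 9, and 27 and 15. On that scale the sign also turned for Cox7a2l (0.02501 and 0.0251 with either pseudocount for day 4 against day 2, 0.16 and 0.16 for day 7 against day 0), for Uqcrq (0.0215 and 0.02156, then 0.0448 and 0.0449), and, for day 7 against day 0, for Uqcr11 (0.10 and 0.10), Ndufb7 (0.0466 and 0.0468), Uqcrh (0.16 and 0.16), Cox7a2 (0.0880 and 0.0884), Cox7b (0.0415 and 0.0416) and Cox8a (0.21 and 0.21). Centring log2(TPM + 1) on all genes, added after seeing the data, reversed 0 of 121 calls of members named by the rules above. It put 15 on the other side of the threshold, whereas log2(TPM + 1) as it stands reversed 11 and put 20 there. In CPM the ratio of day 7 to day 0 was 1.049 for complex I, 0.9351 for complex II, 0.8838 for complex III, 0.9835 for complex IV, 0.8294 for complex V and 0.9167 for all members.

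Median-of-ratios scaling, DESeq2, no filter and the addition of pseudogene counts left every count of members within 1.5 times its value, as did fits of only the 6 libraries compared. Of 121 calls of members named by the rules above, 118, 117 and 116 kept direction and side of the threshold under the first 3 of these. In the fits of 6 libraries 96 of 99 did. Calls of members named only for a limit or a contrast, such as Sdhb, Uqcrb and Cox7c, were not among the 121. In all, 25 of the 121 calls were lost when some 1 library was left out. Leaving out 1 library gave 9 to 14 members higher at day 0.5 against day 0, and 10 to 19 members higher at day 7 against day 4. The cause of these moves was not tested.

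Same-numbered replicates did not deviate together (correlations from -0.064 to 0.058 in the 5 comparisons), so the numbers are not taken to pair the samples. A replicate block left 14 and 18 members higher and lower for day 0.5 against day 0, 7 and 42 for day 2 against day 0.5, 25 and 19 for day 4 against day 2, 18 and 19 for day 7 against day 4, 18 and 44 for day 7 against day 0, and 76 over the 12 time points.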
